A study of Rattus norvegicus with 6 samples.

Results

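The proteins that fuse synaptic vesicles with the plasma membrane were followed at the RNA level in whole hippocampus of 2 rat lines, called Syracuse High Avoidance (SHA) and Syracuse Low Avoidance (SLA). The set holds 9 genes, namely the SNAREs Snap25, Stx1a, Vamp1 and Vamp2, the synaptotagmins Syt1, Syt4 and Syt11, and the complexins Cplx1 and Cplx2. Every probe set whose platform annotation names exactly 1 gene, that gene being among the 9, was taken. This gave 16 probe sets of 8740 that are not array controls, and all 16 passed the filter on dim probe sets, which left 6555. Their names refer to performance in two-way active avoidance, a shuttle box task in which a rat learns to leave the side where a signal announces a shock. The SHA group was 3 pools of hippocampi from 3 SHA rats each, and the SLA group was 3 pools from 3 SLA rats each. All rats had been through avoidance testing and were killed 2 weeks later, so no untested rats were measured, and neither age nor sex is stated in the labels. Each pool was read on its own oligonucleotide array, and the pool is the replicate (n = 3 per line).

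In nerve terminals a SNARE on the vesicle, the synaptobrevin Vamp2 or Vamp1, zips together with the plasma membrane SNAREs syntaxin (Stx1a) and Snap25, and this pulls the membranes into contact. Complexins bind the partly zipped complex, and synaptotagmin 1 senses the calcium that enters with an action potential and triggers fusion. In the hippocampus machinery of this kind serves release at glutamate and at GABA terminals, and its RNA is made mostly in neurons.

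On the rat assembly GRCr8, Snap25 lies at chr3:144494579-144576449, Stx1a at chr12:27278517-27306547, Vamp1 at chr4:159698894-159705582 and Vamp2 at chr10:54292423-54296657. Syt1 lies at chr7:45699649-46244460, Syt4 at chr18:23311454-23320863 and Syt11 at chr2:176503845-176530354. Cplx1 lies at chr14:1329073-1360781 and Cplx2 at chr17:10224673-10297974. The 9 genes thus sit on 9 different chromosomes.

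The promoters of the paralogue pairs Vamp1 and Vamp2, and Cplx1 and Cplx2, are shown because members of each pair do similar work. The sequences are those of RefSeq on GRCr8, from 250 bases before to 50 after the transcript start used in that table, 5′ to 3′ on the gene's strand. That start lies inside the annotated gene for Vamp2 and Cplx2. The windows are chr4:159698644-159698943 (plus strand), chr10:54292539-54292838 (plus strand), chr14:1328823-1329122 (plus strand) and chr17:10236704-10237003 (minus strand). Capitals mark TGACG, the short form of the cAMP response element, and GGGCGG, the GC box, searched on both strands, so that CGTCA and CCGCCC are marked as well.
Vamp1: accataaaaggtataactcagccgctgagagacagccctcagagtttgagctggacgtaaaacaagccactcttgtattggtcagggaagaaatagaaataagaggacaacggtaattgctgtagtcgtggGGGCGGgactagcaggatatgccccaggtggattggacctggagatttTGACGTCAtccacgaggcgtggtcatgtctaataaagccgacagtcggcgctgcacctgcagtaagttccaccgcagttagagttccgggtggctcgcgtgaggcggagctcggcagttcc
Vamp2: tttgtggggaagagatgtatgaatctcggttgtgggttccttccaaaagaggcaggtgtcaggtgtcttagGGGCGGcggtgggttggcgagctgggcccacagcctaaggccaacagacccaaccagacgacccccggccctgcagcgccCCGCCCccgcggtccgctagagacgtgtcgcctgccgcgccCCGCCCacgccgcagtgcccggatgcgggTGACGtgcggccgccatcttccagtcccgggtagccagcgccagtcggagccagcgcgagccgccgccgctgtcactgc
Cplx1: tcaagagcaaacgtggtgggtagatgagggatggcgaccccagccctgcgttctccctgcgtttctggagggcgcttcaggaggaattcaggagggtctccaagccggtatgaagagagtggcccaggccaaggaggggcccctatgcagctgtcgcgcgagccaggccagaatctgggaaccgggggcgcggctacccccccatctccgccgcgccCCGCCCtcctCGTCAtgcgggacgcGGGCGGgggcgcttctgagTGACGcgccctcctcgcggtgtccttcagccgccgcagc
Cplx2: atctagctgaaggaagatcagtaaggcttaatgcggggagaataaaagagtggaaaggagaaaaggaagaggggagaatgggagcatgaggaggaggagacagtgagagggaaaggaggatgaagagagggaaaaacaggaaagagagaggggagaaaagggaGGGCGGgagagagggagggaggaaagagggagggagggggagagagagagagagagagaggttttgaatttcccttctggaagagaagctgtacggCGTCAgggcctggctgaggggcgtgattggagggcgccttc
The Vamp1 window alone held the full palindrome TGACGTCA, which contains the short form on each strand, with its first base at position -71 from the start. The palindrome was in 1.83% of the 33469 promoters of the same length. At least 1 short form was found in 5 of the 8 members with an entry (Vamp1, Vamp2, Syt4, Cplx1 and Cplx2), against 21.2% of all promoters. A GC box was found in 7 of the 8, Syt4 being the one without, against 33.1% of all promoters. The Vamp2 window had 69.3% G and C and 3 GC boxes, and the Stx1a window had 68.7% and 4, where the median promoter had 51.7%. In the Cplx2 window 80.3% of bases were G or A, a share reached by 0.0299% of all promoters, and in the Cplx1 window it was 51%. These matches describe letters in these windows, and no binding was measured.

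The comparison of SHA with SLA rats asked whether the hippocampus of the high avoidance line expresses the fusion machinery at other levels than that of the low avoidance line. No member passed limma's test, and none had an unadjusted p under 0.05. The adjusted p was 1 for each of the 16 probe sets, and the smallest unadjusted p was 0.13, for Snap25 on U56261_s_at. Across all 6555 probe sets, 0.00% had an adjusted p under 0.05 and 1.50% an unadjusted p under 0.05. The median difference over the 16, as log2 SHA minus SLA, was 0.15, against -0.01 over all probe sets tested. Of the 16, 13 were higher in SHA and 3 lower, where 48.1% of all probe sets were higher. After median centring of the arrays the split was 16 to 0. Without SLA pool 1 it was 6 higher and 10 lower, and without SHA pool 2 it was 8 and 8, so the split rests on single pools. For 0 of the 16 were all SHA pools above all SLA pools, and for 0 were they all below, where 2.01% and 3.65% of all probe sets were. Intensities below are linear values on the authors' scale for pools 1, 2 and 3 in that order, and a difference is log2 SHA minus SLA ± standard error.

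Snap25, the plasma membrane SNARE that contributes a pair of helices to the complex, was read by 4 probe sets from 3 sequence records. AB003991_g_at gave 1395.8, 2735.5 and 1631.1 in SHA, against 911.7, 2450.4 and 1368.5 in SLA. Each SHA pool was above the SLA pool of the same number, but the lines overlapped, and the difference was 0.34 ± 0.39 (95% interval -0.53 to 1.21). It was 0.01 without SLA pool 1, 0.06 without SHA pool 2, 0.54 without SHA pool 1 and 0.72 without SLA pool 2. AB003992_s_at gave 233.2, 462.2 and 350.6 in SHA and 148, 431 and 207.9 in SLA, a difference of 0.50 ± 0.43. This became 0.16 without SLA pool 1, 0.27 without SHA pool 2, 0.77 without SHA pool 1 and 0.94 without SLA pool 2. The dimmest, U56261_s_at, gave 67.4, 118 and 90.2 in SHA and 16.7, 71 and 65.8 in SLA. Its difference of 1.07 ± 0.65 was the largest of the 16 and drew mainly on SLA pool 1: the SHA pools numbered 1, 2 and 3 exceeded their SLA counterparts by 2.01, 0.73 and 0.46. The remaining probe set, AB003991_at, did not share this order. It gave 766.5, 1935.1 and 1896.4 in SHA and 548, 2317 and 2118.7 in SLA, with a difference of 0.02 ± 0.56 and a 95% interval of -1.24 to 1.28.

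Stx1a, the syntaxin partner of Snap25 in the plasma membrane, had differences near 0 on both probe sets. D10392_i_at averaged 853 ± 88.6 in SHA and 872 ± 242 in SLA (SD, n = 3), a difference of 0.00 ± 0.27. D12519_s_at averaged 494 ± 113 in SHA and 506 ± 89.7 in SLA, a difference of -0.04 ± 0.27. With the 95% intervals of these probe sets, SHA could hold between 0.637 and 1.52 times the SLA level.

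The vesicle SNARE Vamp2 differed far more between pools than between lines. M24105_at gave 1226.5, 3716.5 and 4374.1 in SHA, against 1205.4, 3543.3 and 3446 in SLA. Both pools numbered 1 lay well below the other 4, with a ratio of pool 2 over pool 1 of 3.03 in SHA and 2.94 in SLA, while the lines differed by 0.15 ± 0.54. The second Vamp2 probe set, rc_AI101103_s_at, gave 576.2, 1958.7 and 1854.5 in SHA and 725.4, 2108.5 and 1404.8 in SLA. The same ratio was 3.40 in SHA and 2.91 in SLA, and the lines differed by -0.01 ± 0.52. Vamp1, the paralogue best known from brainstem and spinal cord, had a narrower range. M24104_at gave 340.5, 507.8 and 485.9 in SHA and 325.1, 413.4 and 429.9 in SLA, a difference of 0.18 ± 0.27. M24104_g_at, from the same record, differed by -0.02 ± 0.30.

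**Figure D1:**
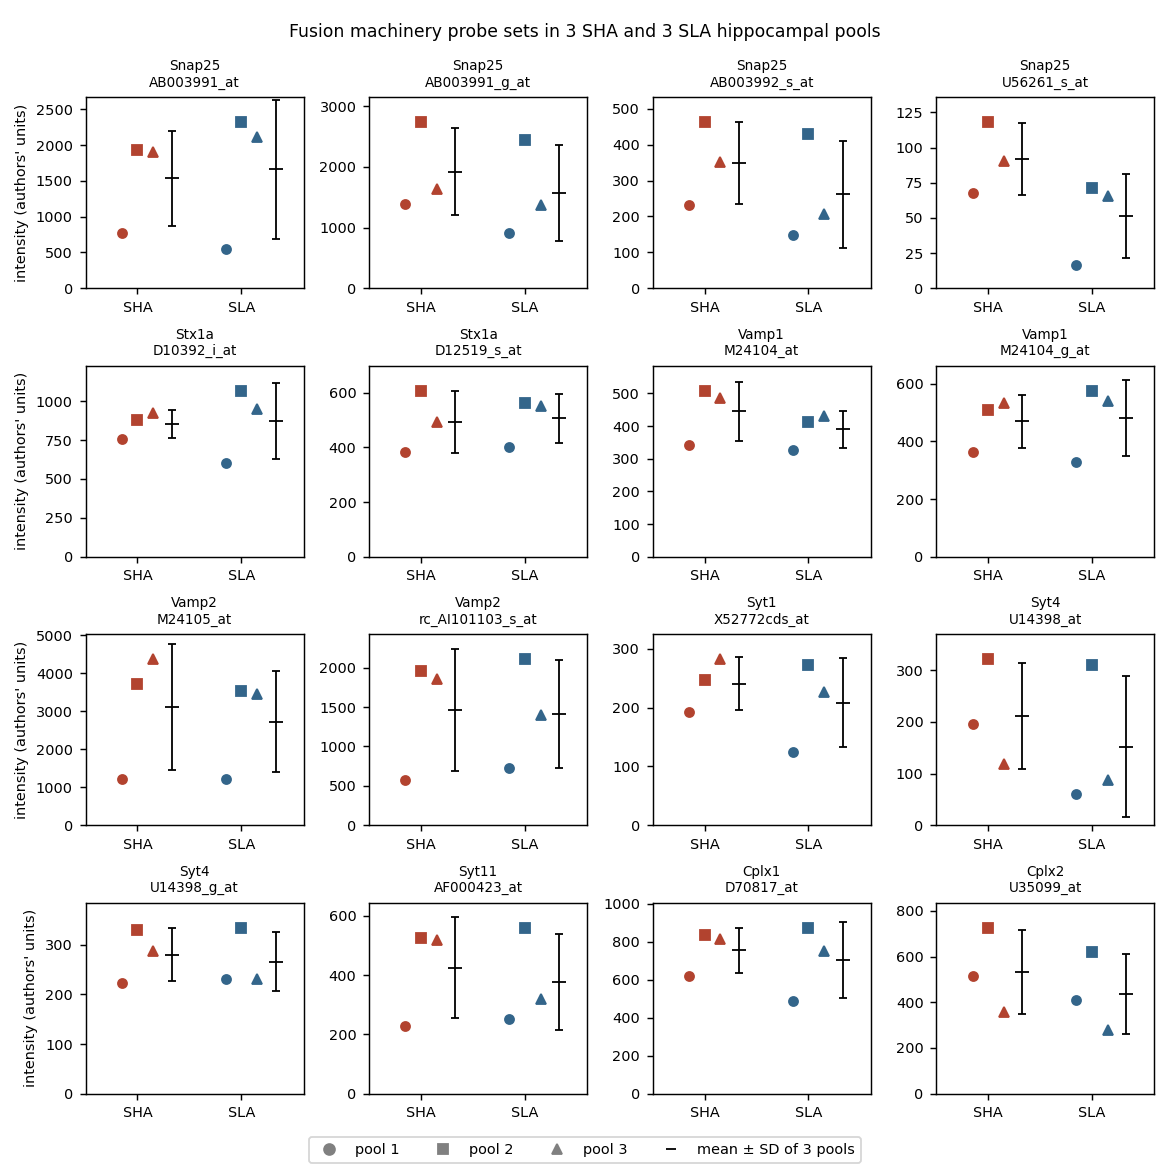
Intensity of the 16 probe sets of the 9 fusion machinery genes in each pool, on linear axes that start at 0, with the mean ± SD of 3 pools per line (SHA left, SLA right). The symbols for pool 1 lie below those for pool 2 in every panel and in both lines, as in Vamp2 on M24105_at with 1226.5 and 3716.5 in SHA pools 1 and 2.

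Among the synaptotagmins, Syt1, the calcium sensor for fast release, on X52772cds_at gave 193.3, 246.1 and 282.2 in SHA and 124.8, 272.1 and 227.3 in SLA. The lines overlapped and differed by 0.27 ± 0.36 (95% interval -0.55 to 1.08). Syt4 and Syt11 form a branch of the family whose first calcium-binding domain lacks a conserved acidic residue, and neither is a fast sensor. Syt4 on U14398_at gave 195.9, 321.4 and 118.4 in SHA and 60.1, 309.7 and 87 in SLA, a difference of 0.73 ± 0.62. That difference came largely from the pools numbered 1, which differed by 1.70, against 0.05 and 0.44 for numbers 2 and 3. The other probe set from the same record, U14398_g_at, gave 223, 330.8 and 288.1 in SHA and 232.2, 334.8 and 232.2 in SLA, a difference of 0.08 ± 0.29, so the probe sets of Syt4 did not go together in the pools numbered 1. Syt11 on AF000423_at gave 229.9, 527 and 520.6 in SHA and 252.2, 560.6 and 318.3 in SLA. Its difference of 0.16 ± 0.41 drew on pool 3, where SHA exceeded SLA by 0.71, against -0.13 and -0.09 for numbers 1 and 2.

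The complexins gave no call either. Cplx1 on D70817_at gave 618.2, 833.9 and 811.7 in SHA and 486.2, 873.4 and 749.6 in SLA, a difference of 0.13 ± 0.28. Cplx2 on U35099_at gave 514.8, 726.3 and 357.9 in SHA and 411.4, 620.5 and 276.9 in SLA, a difference of 0.31 ± 0.36. Cplx2 was higher in SHA in each numbered pair, by 0.32, 0.23 and 0.37, although the lines overlapped. The difference was 0.02 without SLA pool 3 and 0.05 without SHA pool 2, and 0.56 without SHA pool 3 and 0.60 without SLA pool 2. Pool 3 of each line lay between pools 1 and 2 for Cplx1 and held the lowest value for Cplx2.

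The labels number the pools of each line from 1 to 3, and same-numbered pools deviated together from their line means (correlations of 0.44, 0.68 and 0.13 over all probe sets tested). For number 3 this was weak, since SHA pool 3 correlated at 0.16 with SLA pool 1. The test was therefore also run with the pool number as a block. The median standard error of the 16 was 0.17 with the block and 0.38 without it, where over all probe sets tested it was 0.31 and 0.44. With the block, 2 of the 16 had an unadjusted p under 0.05, both of Snap25 and both higher in SHA, where 2.27% of all probe sets were called higher at that limit and 5.26% in either direction. These were AB003991_g_at (unadjusted p = 0.045 in limma) and AB003992_s_at (unadjusted p = 0.047 in limma), each with an adjusted p of 0.83, so neither passed. Of the others of Snap25, U56261_s_at had an unadjusted p of 0.054 and AB003991_at one of 0.90 in that fit. The 4 probe sets read 1 gene in the same pools and are not independent. The SHA pool was above the SLA pool of its number in all 3 pairs for 7 of the 16, namely 3 of Snap25 and 1 each of Vamp1 (M24104_at), Vamp2 (M24105_at), Syt4 (U14398_at) and Cplx2, and below it in all 3 pairs for 0. Over all probe sets tested these shares were 12.7% and 15.2%.

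**Figure D2:**
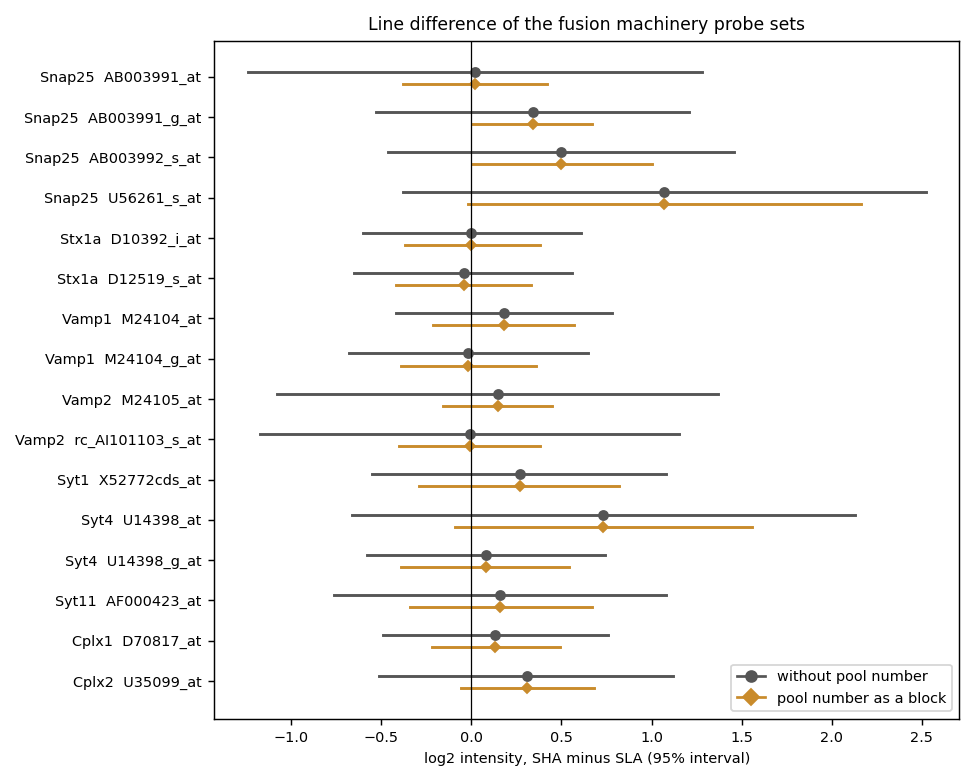
Difference between the lines (log2 intensity, SHA minus SLA) for the 16 probe sets, with 95% intervals from the test without the pool number (circles) and with it as a block (diamonds). The blocked intervals are narrower, and those of Snap25 on AB003991_g_at and AB003992_s_at begin at 0.01, while all intervals without the block include 0.

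The members also shared an order of pools 1 and 2 that was the same in both lines, while the place of pool 3 varied. All 16 probe sets read higher in both pools numbered 2 than in both pools numbered 1, where 31.1% of all probe sets tested did so. By the brightest probe set of each gene it was 9 of 9, against 30.3% of all genes tested. This comparison by pool number was not among the planned ones, and probe sets of 1 gene are not independent. For 10 of the 16, both pools numbered 1 were also below the pools numbered 3, against 17.8% of all probe sets. The exceptions were 3 of the 4 Snap25 probe sets, both of Syt4, and Cplx2. The median log2 difference of pool 2 minus pool 1 over the 16 was 0.69 in SHA and 1.14 in SLA, against -0.01 and -0.05 over all probe sets tested. On the brightest probe set of each gene, the range over the 6 pools was widest for Vamp2, at 1.86 on the log2 scale, followed by Snap25 at 1.59 and Cplx2 at 1.39. It was narrowest for Syt4 at 0.59, followed by Vamp1 at 0.80 and Stx1a at 0.83. Cplx1 lay nearest to the mean profile of the 9 genes, with a root mean square distance of 0.105 on the log2 scale, and Vamp2 farthest, at 0.478. The ranking by range depends on the probe set taken. Around its own mean, Syt4 on U14398_at ran from -1.333 in SLA pool 1 to 1.085 in SHA pool 2. Snap25 on U56261_s_at ran from -1.889 to 0.932 in the same pools.

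**Figure D3:**
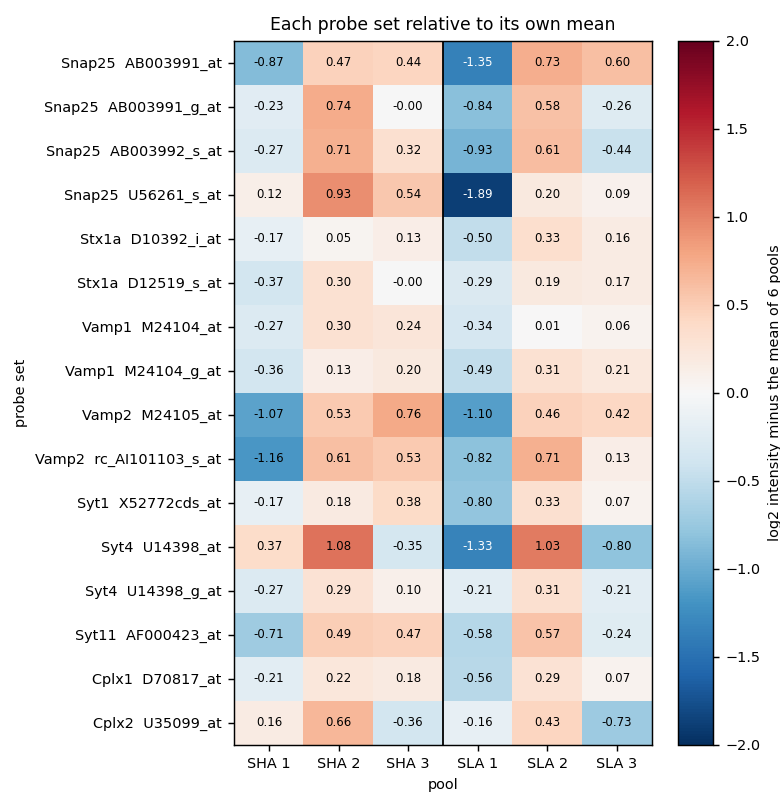
Log2 intensity of each probe set (down the page) minus its own mean over the 6 pools, for the SHA pools (left of the line) and the SLA pools (right of it); red is above and blue below the mean. SLA pool 1 is below the mean for all members and pool 2 of both lines above it; the lowest value is -1.89, for Snap25 on U56261_s_at in SLA pool 1.

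Other measures moved with the pool numbers. Neuronal markers, a list of 13 genes of which 9 were measured, had a summed intensity of 10621 to 14094 in SHA pools and 8840 to 13300 in SLA pools. Its sum reached at most 10621 in the pools numbered 1 and at least 12497 in the other 4. Of the 9 genes, 6 were higher in both pools numbered 2 than in both numbered 1, where 30.3% of all genes tested were. Between the lines, 7 of the 9 were higher in SHA and 2 lower, with a median of 0.27, where 45.8% of all genes were higher. With the block, 1 of the 9 had an unadjusted p under 0.05 in limma, higher in SHA, with an adjusted p of 0.83. Over all probe sets, 2.27% were called higher at that limit. The geometric mean of the hybridization controls (bacterial and phage sequences) was 5458, 1121 and 2279 in SHA pools 1, 2 and 3, against 12282, 640 and 1564 in SLA pools, and was highest in pool 1 of both lines. The control probe sets of opposite orientation for Gapdh and beta-actin, whose names end in st, had a geometric mean of 1352, 30 and 365 in SHA pools 1, 2 and 3, against 1432, 21 and 219 in SLA pools. They too were highest in pool 1 and lowest in pool 2 of both lines. The log2 difference between the 3' and 5' probe sets of Gapdh, which reads how intact the RNA was, came to 0.07, 0.20 and 0.33 in SHA pools and -0.02, 0.09 and 0.43 in SLA pools, lowest in pool 1 and highest in pool 3 of both. For beta-actin it was 0.79, 0.61 and 0.57 in SHA and 0.41, 0.57 and 0.59 in SLA, with no order shared by the lines. The part of these measures in the pool pattern of the fusion genes was not tested. In tissue pools, fewer cells of a type and less RNA per cell cannot be told apart.

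Of the hippocampal subfield markers, 9 of 14 were measured, and 0 probe sets of the list were under the floor in all pools. The lists of neighbouring brain regions, choroid plexus and endothelium also had 0 there, so this count does not tell tissues apart. Nrgn, an abundant calmodulin-binding protein of hippocampal neurons, read 4682.1 to 7730 in SHA and 4273 to 7087.5 in SLA. Nrgn was lowest in pool 2 of each line, the reverse of the fusion genes, but the list was mixed. Of its 9 genes, 3 were higher in both pools numbered 2 than in both numbered 1, where 30.3% of all genes tested were. Of the other cell types, microglia markers were lower in SHA for 7 of 7 measured of 12, where 45.8% of all genes tested were higher. Their summed intensity was 2338 to 3330 in SHA and 3618 to 4467 in SLA, and 1 probe set, of Ptprc, was under the floor in all pools. The brightest of the 7, Ctss, overlapped, with 1407.6 to 2394.4 in SHA and 2056.4 to 3237.5 in SLA. Of all single probe sets tested, 3.65% had all SHA pools below all SLA pools. Oligodendrocyte markers (8 of 10 measured) summed to 15698 to 22294 in SHA and 15544 to 27249 in SLA, and astrocyte markers (9 of 10) to 23170 to 26221 and 20697 to 24582. Choroid plexus markers (5 of 9) summed to 780 to 1026 in SHA and 869 to 1105 in SLA, and endothelial markers (5 of 9) to 944 to 1355 and 1144 to 1373. Markers of neighbouring brain regions (9 of 12) summed to 777 to 1426 in SHA and 982 to 1730 in SLA. Of these 9, 8 were lower in SHA, where 45.8% of all genes tested were higher. Their Drd1, Th, Oxt and Pomc probe sets were dim, averaging under the lowest array median, 80.8, in each line. Also lower in SHA were 6 of 8 oligodendrocyte, 4 of 5 choroid plexus, 4 of 5 endothelial and 3 of 9 astrocyte markers. Over all marker lists, 3 genes had an unadjusted p under 0.05 in limma, where 1.42% of all genes tested did. Each of the 3 was lower in SHA and had an adjusted p of 1. These were the astrocyte marker Vim (vimentin, -1.10, unadjusted p = 0.012 in limma), the region marker Slc6a4 (the serotonin transporter, -0.82, unadjusted p = 0.026 in limma) and the microglia marker C1qb (a complement subunit, -0.61, unadjusted p = 0.039 in limma). The astrocyte sum overlapped between the lines and did not share the order of Vim. The part of these cell types and regions in the line differences of the members was not tested.

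The rest of the release machinery was described by 4 lists holding 87 other genes, of which 40 were tested on their brightest probe set. None passed, and 0 had an unadjusted p under 0.05 in limma's test, against 1.42% of the 3812 genes tested. Of the 40, 23 were higher in SHA and 17 lower, with a median of 0.06, where 45.8% of all genes were higher and their median was -0.03. In both pools numbered 2, 15 of the 40 were higher than in both numbered 1, where 30.3% of all genes were. The endosomal and Golgi SNAREs held 1 such gene of 10, and the assembly and priming factors 9 of 16.

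Factors for assembly, priming and disassembly had 10 of 16 higher in SHA and 6 lower, with a median of 0.11. Rph3a, the Rab3 effector rabphilin, had the smallest unadjusted p, 0.069 in limma's test, and gave 78.4, 66.7 and 91.5 in SHA, against 24.8, 58.8 and 33.2 in SLA (1.10 ± 0.54). Every SHA pool of Rph3a was above every SLA pool, as was the case for 2.01% of all probe sets tested, and Rph3a was singled out by its p. Its probe set was dim: each value lay below the median of its own array, and these medians ran from 80.8 to 103.5. It dropped out under the stricter filter on dim probe sets. Rab3a, the small GTPase of synaptic vesicles, gave 1660.9, 1981.9 and 1595.4 in SHA and 1144.5, 1781.2 and 1045.9 in SLA (0.43 ± 0.26). With the block its unadjusted p was 0.018 in limma and its adjusted p 0.83. Unc13b, a priming factor, differed by 0.81 ± 0.59. The other Rab3 isoforms lay lower in SHA, Rab3c by -0.65 ± 0.73, Rab3d by -0.29 ± 0.43 and Rab3b by -0.13 ± 0.28, each within its error. Rab3c read 10.8 in SHA pool 1, near the floor of 8.9. When low values were raised to the 25th percentile instead of the 10th, Rab3c differed by -0.23 and Unc13b by 0.66.

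The other synaptotagmins and Doc2 proteins had 6 of 9 higher and 3 lower, with a median of 0.12. Doc2a, a calcium sensor for spontaneous and asynchronous release, gave 43.8, 87.5 and 143.6 in SHA and 377, 106.1 and 125.6 in SLA. Its difference of -1.06 ± 0.60 was -0.49 without SLA pool 1. Syt7, a slow calcium sensor, gave 90.3, 137.1 and 103.9 in SHA and 212.8, 167.4 and 121.9 in SLA, a difference of -0.59 ± 0.37. Syt8 differed by -0.05 ± 0.66, Syt6 by 0.97 ± 0.82, Syt12 by 1.19 ± 1.01 and Syt5 by 0.15 ± 0.26. Syt12 read 8.1 in SLA pool 1, under the floor of 8.9, so its difference depends on that floor. Syt6 read 10.8 in SLA pool 3, near the floor, and differed by 0.18 without that pool. With the floor at the 25th percentile, Syt12 differed by 0.71 and Syt6 by 0.55.

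The other plasma membrane and vesicle SNAREs had 3 of 5 higher and 2 lower, with a median of 0.01. Vamp3, the synaptobrevin found in most cell types, was almost level, with 379 to 386.1 in SHA and 362 to 395.7 in SLA (0.01 ± 0.23). Vamp5 differed by 0.72 ± 0.49, and Snap23, the counterpart of Snap25 outside neurons, by 0.03 ± 0.49. On their dimmer probe sets, Vamp5 differed by 0.71 ± 0.60 and Snap23 by -0.24 ± 0.72. Stx4 differed by -0.62 ± 0.67 and Snap29 by -0.29 ± 0.60. Endosomal and Golgi SNAREs had 4 of 10 higher and 6 lower, with a median of -0.08. Among them Ykt6 differed by 0.58 ± 0.37, Stx7 by 0.25 ± 0.47 and Stx12 by 0.22 ± 0.29, and Gosr1 by -0.24 ± 0.56, Bet1l by -0.19 ± 0.51 and Use1 by -0.16 ± 0.25. The dimmer Stx12 probe set, AF035632_s_at, differed by 1.36 ± 0.88, with SLA pool 3 at 8.8, under the floor. Vamp3 did not share the order of pools seen in Vamp2, since its pools 2 and 1 read 382.5 and 379 in SHA and 379.4 and 395.7 in SLA.

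**Figure D4:**
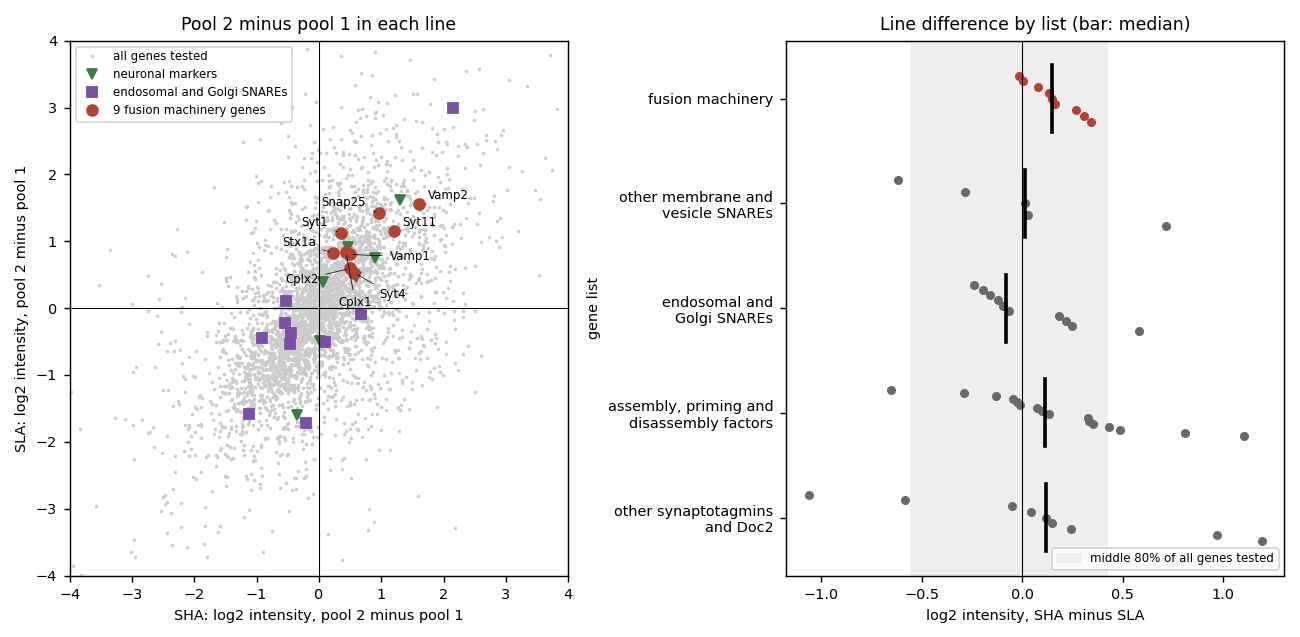
Left, log2 intensity of pool 2 minus pool 1 in SHA (horizontal) and SLA (vertical) for the 3812 genes tested, with the 9 fusion machinery genes, neuronal markers and endosomal or Golgi SNAREs marked; 10 genes beyond the axes' limits of 4 are not drawn. Right, log2 SHA minus SLA of the members and of the 4 lists, with bars at the medians and the middle 80% of all genes shaded, from -0.55 to 0.42. All 9 members have positive values on both axes on the left and within the shaded band on the right.

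The genes whose profile over the 6 pools lay nearest to the mean of the 9 members were Ctxn1, Psmd2, Furin, Sstr2 and Brcc3, at root mean square distances of 0.069, 0.071, 0.078, 0.086 and 0.088 on the log2 scale. Ctxn1 encodes the neuronal membrane protein cortexin, Psmd2 a proteasome subunit, Furin a proprotein convertase and Sstr2 a somatostatin receptor. In centred log2 values the mean of the members was -0.34, 0.37 and 0.21 in SHA pools 1, 2 and 3 and -0.58, 0.40 and -0.06 in SLA pools. Ctxn1 stood at -0.33, 0.35 and 0.07 in SHA and -0.54, 0.45 and 0.01 in SLA. These 5 were picked as the nearest among all other genes tested, over 6 pools, and the likeness is a description.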

How the data were processed

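Total RNA of 6 hippocampal pools was hybridized, per the labels, to 6 arrays. For every probe set the authors deposited a linear intensity; the software behind it is not given in the sources used here. The 2%-trimmed means ran from 250.3 to 250.4, so the arrays came already scaled and were not scaled again. The 59 control probe sets were not tested. Intensities under the 10th percentile, 8.9, were raised to it before log2 was taken, and the dimmest 25% of probe sets was dropped. Gene names follow the platform annotation. Of 7006 probe sets with a single symbol, 6985 were matched by gene number to a reference gene list, whose symbol was then used where given. The test was limma 3.58.1 in R 4.3.3 (eBayes with trend), two-sided, Benjamini-Hochberg adjusted over all 6555 probe sets, with 0.05 as threshold. The number of arrays limits the precision, and since no label tells whether pools come from separate litters or days, p-values measure the spread between these pools.

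Deviations of same-numbered pools correlated at 0.44, 0.68 and 0.13, and SHA pool 3 with SLA pool 1 at 0.16; this pairing comes from the data, and no label explains the numbers. All members are named, then up to 3 genes per direction and release list by smallest p, and the 5 genes nearest to the members' mean profile. Nrgn, Ptprc, Ctss, Vim, Slc6a4, C1qb and Stx3 fall outside this rule and were chosen after their values were seen. Members and lists were chosen with earlier results of these data known. In 20 simulated draws of this comparison (6555 probe sets, 200 changed), the test recovered 8.4% of changes of 2-fold, 47.8% of 4-fold and 73.7% of 8-fold. Each draw mixed changes of 2-, 4-, 8- and 16-fold, and noise was drawn independently for each probe set and pool. The real pools deviated together by number, so these rates describe the simulation only. Alternatives were other normalizations, filters, floors, variance priors, array weights, the block, and leaving out pools. The one without both pools numbered 1 was chosen after seeing the data.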

Additional observations from a re-analysis of the deposited data

How the results depend on the processing

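No member passed the threshold under any of the 17 settings run, where the lowest adjusted p was 0.83, and the count of 0 probe sets past it among all tested held in each. Of 271 values of the 16 member probe sets under these settings, 234 kept their direction and 37 reversed, on 10 probe sets. Signs of differences this small depend on the setting, and the cause was not tested. The 98 probe sets at an unadjusted p under 0.05 (24.5% of them higher in SHA) became 203 when nothing was filtered and 63 when the dimmest 50% was dropped. Array weights gave 354 and the pool number as a replicate block 345. Leaving out single pools gave 57 to 152, with 62 for SHA pool 1, 151 for SHA pool 2, 152 for SLA pool 2 and 57 for SLA pool 3. The share higher was 34.8% after median centring, 43.8% with array weights and 43.2% with the block, and from 14.6% (without SHA pool 3) to 51.3% (without SLA pool 2) when 1 pool was left out. Members at that limit, 0 in the main setting, numbered 2 with the block and 0 to 2 when 1 pool was left out, the 2 being Snap25 (AB003992_s_at) and Syt4 (U14398_at) without SLA pool 2. Members higher in SHA ranged from 6 (without SLA pool 1) to 16 when 1 pool was left out. They were 10 of 16 with array weights and 12 without both pools numbered 1. Release machinery genes at that limit were 1 with no filter (Stx3), 1 with no intensity trend and 1 when probe sets of a gene were averaged (Rph3a in both), 1 with the block (Rab3a), 4 with array weights (Rab3a, Ykt6, Rph3a and Syt6) and 0 to 3 when 1 pool was left out, the 3 being Rab3a, Doc2a and Rph3a without SLA pool 2.

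Reversed values with quantile normalization were -0.03 for Snap25 (AB003991_at), 0.02 for Vamp1 (M24104_g_at) and 0.05 for Syt8. With median centring they were 0.01 for Stx1a (D12519_s_at), 0.04 for both Vamp1 (M24104_g_at) and Vamp2 (rc_AI101103_s_at) and 0 for Syt8. With array weights they were -0.47 for Snap25 (AB003991_at), -0.14 for Stx1a (D10392_i_at), -0.22 for Vamp2 (M24105_at) and 0.29 for Snap29. Without both pools numbered 1 they were -0.21 for Snap25 (AB003991_at), -0.16 for Stx1a (D10392_i_at), 0.15 for Vamp2 (rc_AI101103_s_at), 0.29 for Snap29, 0.20 for Bet1l, 0.35 for Gosr1, 0.52 for Syt8 and 0.26 for Rab3c. When 1 pool was left out, differences crossed 0 over the ranges -0.11 to 0.31 for Cplx1 (D70817_at), -0.65 to 0.46 for Snap25 (AB003991_at), -0.24 to 0.17 for Stx1a (D10392_i_at), -0.21 to 0.13 for Stx1a (D12519_s_at), -0.07 to 0.50 for Syt1 (X52772cds_at), -0.09 to 0.56 for Syt11 (AF000423_at), -0.05 to 0.25 for Syt4 (U14398_g_at), -0.27 to 0.16 for Vamp1 (M24104_g_at), -0.37 to 0.72 for Vamp2 (M24105_at) and -0.43 to 0.56 for Vamp2 (rc_AI101103_s_at). The same held over -0.58 to 0.17 for Bet1l (rc_AA892602_at), -0.70 to 0.17 for Gosr1 (rc_AI177943_s_at), -0.29 to 0.06 for Rab3b (AA799389_g_at), -0.21 to 0.24 for Snap23 (AF052596_at), -0.63 to 0.20 for Snap29 (AF035822_at), -0.01 to 0.40 for Stx12 (AF044581_at), -1.25 to 0.00 for Stx4 (L20821_at), -0.13 to 0.66 for Stx7 (AF031430_at), -0.07 to 0.31 for Syt5 (U26402_at), -0.70 to 0.36 for Syt8 (U20110cds_at) and -0.02 to 0.05 for Vamp3 (S63830_s_at). With the floor at the 25th percentile, Snap25 on U56261_s_at differed by 0.86, against 1.07 in the main setting. The block changed no call at an adjusted p.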
